A study of Mus musculus with 18 samples.

Results

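Lung RNA of 4 mice given the low dose of the 4PAH-Mix, 12.5 mg of BaP equivalents per kg body weight and day, was compared with lung RNA of 5 mice given the olive oil vehicle. These mice are numbered 6, 7, 9 and 10 at the low dose and 1 to 5 in the vehicle group, and they make up 9 of the 18 mice of the series. The groups were taken from the sample titles and the dose labels, and not from any measured value. The 4PAH-Mix is a defined mixture of benzo[a]pyrene (BaP), benz[a]anthracene, benzo[b]fluoranthene and chrysene, blended in the proportions in which coal tar holds them. All animals, controls included, were male MutaMouse of about 12 weeks of age (on a BALB/C and DBA/2 background), which carry a lacZ reporter transgene in every cell. They were dosed by oral gavage on 28 consecutive days, and the lungs were taken 72 h after the last dose. The other mice of the series received 25 mg (medium dose, 5 mice) or 50 mg (high dose, 4 mice) of BaP equivalents per kg and day and enter only the estimate of spread and the comparison between doses.

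Polycyclic aromatic hydrocarbons bind the aryl hydrocarbon receptor (AHR), a transcription factor that switches on the CYP1 enzymes, and these enzymes turn the compounds into diol epoxides that bind DNA. DNA adducts and stalled replication activate p53, which induces genes for cell cycle arrest, repair and cell death. The circadian clock of the lung is a separate loop, in which CLOCK and ARNTL drive their own repressors (PER, CRY and REV-ERB proteins) and the output factors DBP, TEF and HLF.

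Each mouse was measured on 1 array, where its Cy5-labelled lung RNA was hybridised together with Universal Mouse Reference RNA, a bought pool that carried Cy3. Values are log2 ratios of lung RNA to this reference after loess normalization within the array, so a value of 0 means the same signal in both channels. Over the 9 arrays the median intensity ranged from 110 to 134.5 in Cy5 and from 75 to 83 in Cy3, and in the lung channel 51.5% to 61.1% of probes stood well above background. All 9 measured markers of alveolar type 2 cells and all 7 of alveolar type 1 cells were well above background on all 9 arrays. The 9 arrays lay on 3 slides that each held both groups, but arrays of 1 group took the same slide column, so that column and group cannot be told apart. The labels do not say whether the mice shared a cage or litter, and p-values measure the spread between these mice. In whole lung, fewer cells of a type and less RNA per cell cannot be told apart.

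A probe was called when its limma adjusted p (Benjamini-Hochberg over all 55681 probes) was 0.05 or less and its change at least 1.5-fold. At the low dose 50 probes were called, 0.0898% of those tested. Of these, 36 were higher (0.0647%) and 14 lower (0.0251%) than in the vehicle mice. The 50 probes stood for 35 named genes, 26 higher and 9 lower, and for 5 higher and 5 lower probes without a gene symbol. The median log2 fold change was 0.85 over the probes that rose and -0.73 over those that fell, beside 0.003 over all probes. The low-dose values of 48 of the 50 called probes lay all above or all below the vehicle values, as did those of 2.81% of all probes. All 50 probes moved in the same direction within each of the 3 slides, and the share of all probes that did so was not counted. The probes had been picked on these same arrays, so neither count is separate support for the calls. With loess replaced by median centring 3 probes were called, all higher, and without the 4 arrays of slide 3, 1 of each dose group, there were 23, with 20 higher.

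**Figure D1:**
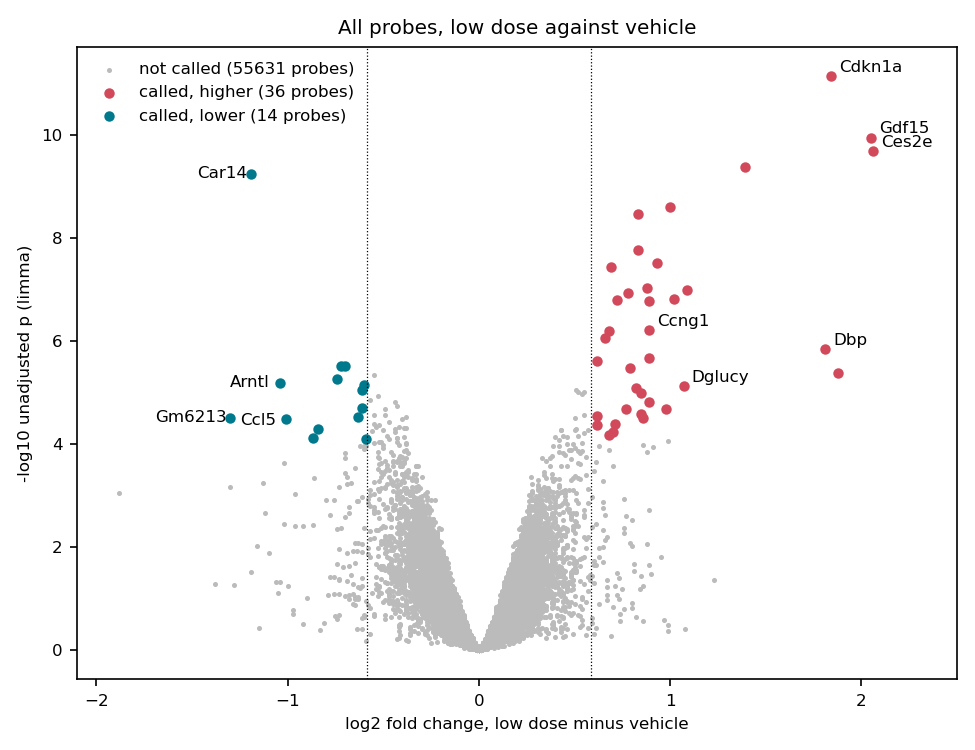
Each point is 1 of 55681 probes, with the log2 fold change at the low dose on the x axis and -log10 of limma's unadjusted p on the y axis, and dotted lines mark a 1.5-fold change. Red points are the 36 probes called higher and blue points the 14 called lower; the labels mark some of the largest changes, with Ces2e and Gdf15 farthest to the right and Cdkn1a (its probe with a change of 1.84) at the top.

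Genes induced by p53 to halt the cell cycle were among the largest rises. Gdf15, a secreted stress cytokine of the TGF-beta family, had log2 ratios of -1.79, -2.37, -1.66, -1.78 and -2.24 in the vehicle mice and of 0.15, 0.06, 0.31 and -0.18 at the low dose. Its RNA was thus 4.15-fold higher (log2 fold change 2.05, 95% confidence interval 1.69 to 2.42), and the lowest exposed mouse lay far above the highest vehicle mouse. Cdkn1a, which encodes the cyclin-dependent kinase inhibitor p21, had log2 ratios of -0.51, -1.07, -0.74, -0.45 and -0.83 in vehicle mice and of 0.57, 0.61, 0.57 and 0.93 at the low dose. It rose by 1.39 (standard error 0.13, limma adjusted p = 5.9e-06) on its brightest probe and by 1.84 on a probe for another transcript (adjusted p = 3.9e-07). The groups did not overlap, and low-dose mouse 10 stood above the other exposed mice. Ccng1, encoding cyclin G1, which acts in the p53 and MDM2 feedback, had log2 ratios of -0.85, -0.69, -1.0, -0.66 and -0.95 in vehicle mice and of 0.15, 0.08, 0.04 and -0.06 at the low dose, a rise of 0.89 (adjusted p = 0.0020) with a narrow spread in both groups.

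The promoter of Cdkn1a is shown because this p53 target gave the smallest p of all probes tested. The sequence (RefSeq, GRCm38.p6, chr17:29090729-29091028, plus strand) runs from 250 bases before to 50 after a start site, 1 of 2 listed for the gene. The capitals mark its 2 matches to the p53 motif, the 10-letter element bound by a p53 dimer, searched on both strands without a mismatch.
Cdkn1a promoter: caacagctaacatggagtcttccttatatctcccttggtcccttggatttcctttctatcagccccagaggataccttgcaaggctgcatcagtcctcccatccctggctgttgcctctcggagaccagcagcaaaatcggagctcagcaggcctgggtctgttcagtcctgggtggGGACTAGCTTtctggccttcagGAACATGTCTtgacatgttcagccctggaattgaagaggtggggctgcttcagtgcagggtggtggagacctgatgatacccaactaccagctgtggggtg
This motif occurs in the windows of 8.36% of all 32851 listed promoters and of 9.55% of all 27025 genes, with at least 1 match in 10 of the 31 called genes that have a listed promoter. A match says only that the letters are there.

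The other growth arrest targets of p53 moved less. Of the 13 genes on this list, 3 were called, all higher, beside 0.16% of all 20660 genes (by their brightest probe), and the median log2 fold change was 0.18 beside 0.011 over all genes. Plk2, a kinase of the early cell cycle, and Zmat3, an RNA-binding p53 target, were each 0.50 higher with adjusted p-values of 0.031 and 0.040, below the 1.5-fold limit. Sesn2, a stress-induced inhibitor of mTOR signalling, differed by 0.44 (adjusted p = 0.20). Gadd45a (0.18), Sesn1 (0.15), Btg2 (-0.01) and Tigar (-0.05) did not pass the test. As a mean over the 13 genes, the difference from the vehicle average was 0.49, 0.45, 0.52 and 0.49 in the 4 exposed mice and between -0.05 and 0.08 in the vehicle mice. This mean includes the 3 called genes and stands above the list median of 0.18, so it does not describe the other members.

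P53 targets that promote cell death gave 3 calls among 12 measured genes, again all higher, beside 0.16% of all genes. Their median was 0.27, beside 0.011 over all genes. Phlda3, a repressor of AKT signalling, had log2 ratios of 0.47, 0.02, 0.29, 0.31 and 0.05 in the vehicle mice and of 1.31, 1.1, 1.22 and 1.28 at the low dose, a 2.00-fold rise (adjusted p = 2.3e-05). Aen, a nuclease that acts in apoptosis, had log2 ratios of -0.31, -0.57, -0.27, -0.63 and -0.67 in vehicle mice and of 0.59, 0.57, 0.20 and 0.42 in exposed mice. Both genes separated the groups without overlap, and Aen rose by 0.93 (adjusted p = 0.00019) and by 0.89 on its other probe. Trp53inp1, which encodes a p53-induced stress protein, rose by 0.78 (adjusted p = 0.00049) and by 0.62 on its other probe. Bax, the pore-forming protein of the mitochondrial pathway, had log2 ratios of -2.18, -1.71, -1.83, -2.23 and -1.81 in vehicle mice and of -0.61, -1.09, -1.29 and -0.86 at the low dose. The groups did not overlap, yet the difference of 0.99 (standard error 0.21) had an adjusted p of 0.052 and was not called. Pmaip1 (0.42), Ei24 (0.29), Tnfrsf10b (0.25) and Bbc3 (0.22) had unadjusted p-values below 0.05, as did 9.26% of all genes, while Fas (-0.07) and Perp (0.00) lay near 0.

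Among the regulators of p53 no gene was called. Mdm2, the ubiquitin ligase that degrades p53 and is itself a p53 target, was 0.40 higher (adjusted p = 0.047, below the fold limit), with vehicle values from -0.11 to 0.17 and low-dose values from 0.30 to 0.44. Trp53 differed by -0.41 (adjusted p = 0.33) and Mdm4, an inhibitor of p53, by -0.47 (adjusted p = 0.26). In this list of 8 genes the unadjusted p was below 0.05 for 3 that were higher and 3 that were lower, beside 9.26% of all genes in either direction. Of 10 repair genes linked to p53, Polk was the 1 called, beside 0.16% of all genes. Polk encodes DNA polymerase kappa, which copies past bulky adducts, and its log2 ratio rose from -0.65 ± 0.23 (SD, n = 5) to -0.03 ± 0.07 (SD, n = 4). The change of 0.62 had an adjusted p of 0.037, another probe gave 0.13, and the call was lost when any 1 of 8 mice was left out (0.57 to 0.71; vehicle mouse 1 was the exception). The damage-recognition genes Xpc (0.21) and Ddb2 (0.11) were not called.

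**Figure D2:**
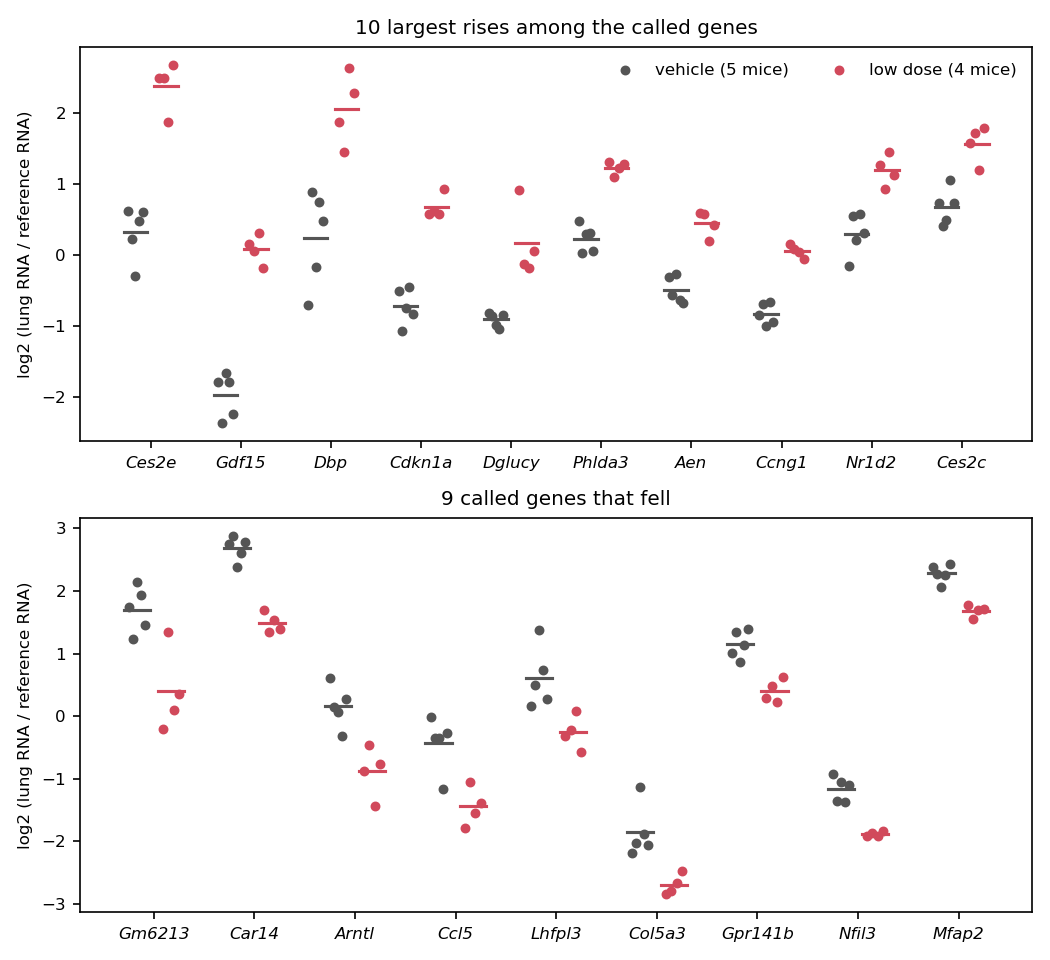
The upper panel shows the 10 called genes with the largest rises and the lower panel the 9 called genes that fell, with gene names on the x axis and on the y axis the log2 ratio of Cy5 (lung) to Cy3 (reference). Each point is 1 mouse (grey, vehicle; red, low dose) and each line a group mean; in the upper panel no red point lies as low as a grey point of its gene, and in the lower panel the groups overlap for Gm6213 and Ccl5.

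Genes of the circadian clock moved in both directions. The PAR bZIP output factors, transcription factors that peak late in the rest phase and bind D-box elements, gave 2 calls among 3 genes. Over all genes 0.16% were called, and the median of the 3 was 0.86, beside 0.011 over all genes. Dbp had log2 ratios of -0.70, 0.88, -0.17, 0.74 and 0.47 in the vehicle mice and of 1.87, 1.44, 2.62 and 2.28 at the low dose. It was 3.50-fold higher (log2 fold change 1.81, adjusted p = 0.0039), and its standard error of 0.27 was the largest among the called genes. Tef stood at 1.25, 1.70, 1.12, 1.59 and 1.49 in vehicle mice and at 2.66, 1.96, 2.54 and 1.99 in exposed mice, a rise of 0.86 (adjusted p = 0.031). Hlf, with vehicle values from 0.26 to 1.17 and low-dose values from 0.75 to 2.04, overlapped and was not called (0.80, adjusted p = 0.27).

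All 10 measured clock repressors had log2 fold changes above 0, and the share of all genes above 0 was not counted. Their median was 0.43, beside 0.011 over all genes, and 2 of them were called, beside 0.16% of all genes. Nr1d2, which encodes REV-ERB beta, had log2 ratios of -0.15, 0.55, 0.21, 0.57 and 0.31 in vehicle mice and of 1.27, 0.92, 1.45 and 1.12 at the low dose, a rise of 0.89 (adjusted p = 0.0055). Per3, of the period family, had log2 ratios of 0.28, 0.86, 0.51, 0.61 and 0.80 in vehicle mice and of 1.74, 1.13, 1.53 and 1.35 in exposed mice, a rise of 0.82 (adjusted p = 0.014). Neither gene showed an overlap of the groups. Nr1d1, encoding REV-ERB alpha, differed by a similar amount (0.91, standard error 0.19) with an adjusted p of 0.056, and its vehicle values reached 1.2 against a lowest exposed value of 1.24. Per2 (0.70, adjusted p = 0.088), Per1 (0.50, 0.33) and Cry2 (0.35, 0.12) were not called. In low-dose mouse 7 the mean over the 10 repressors was 0.25 above the vehicle average, below the 0.47 to 0.66 of the other exposed mice, and its mean over the output factors was also the lowest of the exposed mice (0.57 against 1.1 to 1.56).

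Of the 8 clock activators counted together with Nfil3, 2 were called, both lower, beside 0.16% of all genes. Arntl, encoding BMAL1, had log2 ratios of 0.61, 0.14, 0.07, -0.31 and 0.28 in vehicle mice and of -0.88, -0.46, -1.43 and -0.76 at the low dose, 2.06-fold lower (log2 fold change -1.04, adjusted p = 0.012). Nfil3, a repressor that competes with the PAR bZIP factors for D-boxes, had log2 ratios of -0.93, -1.35, -1.06, -1.37 and -1.10 in vehicle mice and of -1.92, -1.87, -1.91 and -1.83 in exposed mice. Its fall of 0.72 (adjusted p = 0.0072) was uniform, since the exposed mice spanned less than 0.1. Npas2, a partner of BMAL1, differed by -0.52 (adjusted p = 0.13) and Clock by -0.20, and the median over the list was -0.22. The labels do not give the time of day at which each mouse was killed, and the part of sampling time in these values was not tested. No gene of the 10 glucocorticoid receptor targets was called, and their median was -0.03. The call of Arntl was lost without low-dose mouse 9 (-0.86), that of Per3 without low-dose mouse 6 or 9 (0.72 at the lowest), and that of Tef without low-dose mouse 6 or 9 or vehicle mouse 1, 3 or 5 (0.73 to 0.96 over all mice left out). Without slide 3 Dbp, Nr1d2, Per3, Tef, Arntl and Nfil3 were no longer called, with their directions kept.

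The promoters of Per3 and Tef are shown because these called clock genes carry the letters of the D-box (TTATGTAA, bound by DBP, TEF and HLF) and of the E-box (CACGTG, bound by CLOCK and BMAL1). Capitals mark the 2 D-boxes of Per3 (RefSeq, GRCm38.p6, chr4:151044616-151044915, minus strand) and the E-box in a window of Tef (chr15:81802423-81802722, plus strand). This is 1 of 2 windows listed for Tef, and the other also held an E-box.
Per3 promoter: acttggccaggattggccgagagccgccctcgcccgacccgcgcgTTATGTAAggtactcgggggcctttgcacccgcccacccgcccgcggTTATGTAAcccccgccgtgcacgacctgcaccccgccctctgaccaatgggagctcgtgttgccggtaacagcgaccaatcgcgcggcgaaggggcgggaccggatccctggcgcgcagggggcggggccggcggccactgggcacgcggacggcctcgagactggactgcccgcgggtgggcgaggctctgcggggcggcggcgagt
Tef promoter: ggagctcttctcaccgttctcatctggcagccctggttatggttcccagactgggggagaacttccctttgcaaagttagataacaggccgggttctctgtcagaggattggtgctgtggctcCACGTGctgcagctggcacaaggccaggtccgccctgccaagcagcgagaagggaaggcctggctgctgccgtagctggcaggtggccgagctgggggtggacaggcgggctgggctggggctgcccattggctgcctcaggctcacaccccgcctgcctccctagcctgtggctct
The D-box was found in 0.938% and the E-box in 7.15% of all promoter windows, on either strand, or in 1.11% and 8.09% of all genes. Of the 31 called genes with a listed promoter, 1 held the D-box (Per3) and 4 held the E-box. These 4 were Tef and, outside the clock lists, Aen, Gdf15 and Tspan4.

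Of 8 measured AHR targets, 2 were called, both higher, beside 0.16% of all genes. The median was 0.11, beside 0.011 over all genes. Cyp1b1, a CYP1 enzyme that oxidizes PAHs, had log2 ratios of -1.60, -1.55, -1.45, -2.25 and -1.65 in vehicle mice and of -1.06, -0.80, -1.17 and -0.37 at the low dose. It rose by 0.85 (adjusted p = 0.030); vehicle mouse 4 was low and exposed mouse 10 high, and without either of them, or without vehicle mouse 1 or 5 or low-dose mouse 7, the call was lost (0.69 to 0.96). Ahrr, the repressor that AHR induces against itself, had log2 ratios of -0.76, -0.67, -0.63, -0.60 and -0.61 in vehicle mice and of 0.02, 0.23, -0.09 and -0.02 in exposed mice. Its rise of 0.69 (standard error 0.08, adjusted p = 0.00021) kept its call without any 1 of the mice, but its probe was well above background in 1 of 5 vehicle and 4 of 4 exposed mice, and the scanner software's background-subtracted ratios gave 2.30. A second Ahrr probe, dim on all 9 arrays, gave 0.10. Cyp1a1, the classical AHR target, had log2 ratios of 1.59, 0.82, 0.60, 0.37 and 1.65 in vehicle mice and of 1.03, 0.67, 0.35 and 0.67 at the low dose. The groups overlapped and the difference of -0.32 (95% confidence interval -1.02 to 0.37, adjusted p = 0.88) was not called. Tiparp (0.18), Nqo1 (0.23) and Aldh3a1 (-0.10) were not called, and Cyp1a2 was not well above background on any of the 9 arrays.

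The promoter of Ahrr is shown because it holds 3 copies of GCGTG, the core letters of the AHR response element, written in capitals (RefSeq, GRCm38.p6, chr13:74292282-74292581, minus strand).
Ahrr promoter: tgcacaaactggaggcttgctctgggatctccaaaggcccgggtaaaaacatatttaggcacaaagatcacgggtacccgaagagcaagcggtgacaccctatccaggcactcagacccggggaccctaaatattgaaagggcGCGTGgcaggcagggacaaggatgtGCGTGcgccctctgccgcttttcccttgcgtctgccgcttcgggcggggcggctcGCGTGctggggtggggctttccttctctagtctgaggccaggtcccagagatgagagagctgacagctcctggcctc
This short core is common: it was found on either strand in 32.4% of all promoter windows and 35.2% of all genes, and in the windows of 15 of the 31 called genes.

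The largest rise among the called genes was that of Ces2e (log2 fold change 2.06, standard error 0.18), close to that of Gdf15 (2.05, standard error 0.18). Ces2e, a carboxylesterase of the endoplasmic reticulum, had log2 ratios of 0.61, 0.23, -0.30, 0.47 and 0.60 in vehicle mice and of 2.48, 2.48, 1.87 and 2.67 at the low dose, 4.16-fold higher (adjusted p = 3.8e-06). Ces2c, of the same family, had log2 ratios of 0.73, 0.40, 0.49, 1.05 and 0.73 in vehicle mice and of 1.57, 1.71, 1.19 and 1.79 in exposed mice, a rise of 0.89 (adjusted p = 0.021). The groups did not overlap for either gene. Of the 17 measured carboxylesterases 8 were dim in both groups and 2 were called, beside 0.16% of all genes. The median was 0.14, beside 0.011 over all genes, and Ces2b differed by 0.63 (adjusted p = 0.41) and Ces2a by -0.21. The Ces2 genes are a tandem family of near copies, and probes may catch more than 1 of them. A dim second probe of Ces2e gave 0.22, and the other probes of Ces2c gave 0.16 and 0.21. Ces2c lost its call without low-dose mouse 6, 7 or 10 or without vehicle mouse 2 or 3 (0.81 to 1.01).

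Ephx1, microsomal epoxide hydrolase, which forms the dihydrodiols from which diol epoxides arise, had log2 ratios of 1.21, 1.37, 0.83, 1.17 and 1.45 in vehicle mice and of 2.14, 1.86, 2.11 and 2.23 at the low dose. It rose by 0.88 (adjusted p = 0.00046) and by 1.09 on its other probe. It was the 1 gene called among 19 measured genes of oxidation and hydrolysis, beside 0.16% of all genes. Of the 19, 17 had changes above 0, a share not counted over all genes, and the median was 0.11. Cyp2a4 (0.60), Cbr3 (0.37) and Cyp2e1 (0.34) were not called. None of 21 glutathione transferases was called by limma. Of them 2 had an unadjusted p below 0.05, beside 9.26% of all genes, and the median was 0.11, with Gsta2 (0.38) the highest. NRF2 targets gave no call either, with 2 of 11 below an unadjusted p of 0.05, a median of -0.05, Osgin1 at 0.33 and Hmox1 at -0.22.

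The remaining called genes that rose belong to no shared list. Dglucy, D-glutamate cyclase of mitochondria, had log2 ratios of -0.82, -0.86, -0.98, -1.04 and -0.84 in vehicle mice and of 0.91, -0.13, -0.18 and 0.05 at the low dose, a rise of 1.07 (adjusted p = 0.014) in which mouse 6 stood highest. Another Dglucy probe gave 0.86 with an adjusted p of 0.054. The other genes of this kind rose by 0.62 to 0.85, and for all of them the lowest exposed value was above the highest vehicle value. Of all probes, 2.81% had exposed values all above or all below the vehicle values. These genes had been picked on the same mice, so the lack of overlap is no separate support. Among these genes were Tspan4 (0.85), a tetraspanin, Serp2 (0.83), a stress-associated protein of the endoplasmic reticulum, Ddah1 (0.79), which degrades the nitric oxide synthase inhibitor dimethylarginine, and Inka2 (0.77), an inhibitor of the kinase PAK4. Serpinb10 (0.71), a serine protease inhibitor, Tex11 (0.70), a meiosis gene, Exoc4 (0.68), a subunit of the exocyst, Ier5 (0.66), an immediate early response gene, and Srgn (0.62), the granule proteoglycan serglycin, made up the rest. Other probes moved less and were not called, with 0.47 for Ddah1 (adjusted p = 0.16) and 0.46 for Ier5 (0.054), both on the brightest probe of the gene, 0.43 for Exoc4 (0.21), 0.36 for Inka2 (0.31) and, dim in both groups, 0.17 for Tex11. On the probes called, Serp2, Ddah1, Exoc4, Ier5 and Dglucy kept their calls without any 1 mouse, but all of them lost their calls with median centring. Dglucy and Ddah1 also lost theirs with the scanner software's ratios, Dglucy and Ier5 without slide 3, and Ddah1 from the Cy5 channel alone. The remaining genes lost their calls without at least 1 mouse: Tspan4 without low-dose mouse 6, 9 or 10, Inka2 without any of 6 mice (0.69 to 0.84), Serpinb10 and Srgn without any of 7 (0.55 to 0.82 and 0.56 to 0.68) and Tex11 without any of 8 (0.57 to 0.84).

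The largest fall that separated the groups was that of Car14, a membrane-bound carbonic anhydrase. Car14 had log2 ratios of 2.75, 2.88, 2.38, 2.61 and 2.79 in vehicle mice and of 1.70, 1.35, 1.54 and 1.39 at the low dose, 2.28-fold lower (log2 fold change -1.19, standard error 0.11, adjusted p = 6.2e-06). Its call was kept without any 1 of the mice and was lost with the scanner software's ratios. Gm6213, a predicted gene, gave the largest fitted fall (-1.30, adjusted p = 0.031), from log2 ratios of 1.75, 1.23, 2.14, 1.93 and 1.46 in vehicle mice to -0.20, 1.34, 0.10 and 0.36. Exposed mouse 7 lay within the vehicle range, and the probe was well above background in 1 of 4 exposed mice and in none of the reference channels. Its call was lost without any of 6 mice (-1.61 to -1.1).

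Ccl5, a chemokine made by T cells and natural killer cells, had log2 ratios of -0.02, -0.35, -0.35, -1.17 and -0.27 in vehicle mice and of -1.78, -1.06, -1.54 and -1.38 at the low dose. It fell by 1.01 (adjusted p = 0.031; two-sided exact permutation test, p = 0.0238), although vehicle mouse 4 lay within the exposed range. The call was kept only without vehicle mouse 4 or low-dose mouse 7, and was lost without any other mouse (-1.2 to -0.90). Lhfpl3, a tetraspan membrane protein, had log2 ratios of 0.16, 0.50, 1.37, 0.74 and 0.27 in vehicle mice and of -0.32, -0.22, 0.08 and -0.57 at the low dose, a fall of 0.87 (adjusted p = 0.047). Gpr141b, an orphan G protein-coupled receptor, had log2 ratios of 1.01, 1.35, 0.86, 1.13 and 1.39 in vehicle mice and of 0.29, 0.48, 0.22 and 0.63 in exposed mice, a fall of 0.74 (adjusted p = 0.011). Neither of them overlapped, and another Lhfpl3 probe gave -0.70 (adjusted p = 0.11), but Lhfpl3 lost its call without any of 7 mice (-0.98 to -0.68) and Gpr141b without low-dose mouse 6 or 9 (-0.82 to -0.68 over all mice left out).

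The remaining falls were of Col5a3 and Mfap2, which encode parts of the extracellular matrix. Col5a3, a chain of type V collagen, had log2 ratios of -2.18, -2.02, -1.14, -1.89 and -2.06 in vehicle mice and of -2.85, -2.80, -2.67 and -2.47 at the low dose, a fall of 0.84 (adjusted p = 0.040) in which vehicle mouse 3 stood well above the rest. Mfap2, a glycoprotein of elastic microfibrils, had log2 ratios of 2.39, 2.27, 2.06, 2.26 and 2.43 in vehicle mice and of 1.77, 1.56, 1.70 and 1.71 in exposed mice, a fall of 0.60 (adjusted p = 0.014). The groups did not overlap for either gene, and another Mfap2 probe gave -0.29. Leaving out 1 of 7 mice ended the call of Col5a3 (-0.92 to -0.66), and leaving out vehicle mouse 1 or 5 or low-dose mouse 7 that of Mfap2 (-0.65 to -0.56). The fibroblast markers Col3a1 (-0.76, adjusted p = 0.19), Col1a1 (-0.55, 0.23), Col1a2 (-0.49, 0.31) and Dcn (-0.48, 0.62) each had exposed values that lay all below the vehicle values, but none was called. Over all probes, 2.81% had exposed values all above or all below the vehicle values. The other markers of this list, Lum, Mfap5, Pdgfra and Fn1, overlapped between the groups, and Fn1 was not lower (0.04).

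No gene symbol was at hand for 10 of the called probes. On the array's own build (mm9) 2 probes lie on the minus strand of chr17:29183003-29217681 and were 0.98 and 0.83 higher, or 1.73 and 1.88 by the scanner software's ratios. Another, on the plus strand of chr1:163508244-163586072, was 0.72 higher and was also higher at the high than at the low dose (0.65, adjusted p = 0.013). Both probes for chr19:5798135-5800557 (minus strand) were lower, by -0.70 and -0.61, as was 1 for chr4:94742359-94822969 (plus strand, -0.61). The files name these 6 probes by their coordinates alone. The remaining 4 probes are tied to cDNA clones or a predicted transcript, of which A_55_P2148534 was higher by 1.02 (adjusted p = 0.00058) and A_66_P115580 by 0.68, and A_52_P311031 (-0.63) and A_55_P2002449 (-0.59) were lower. Leaving out any 1 of the 9 mice ended the call of A_66_P115580 (0.54 to 0.77), any of 8 that of A_52_P311031 (-0.67 to -0.56) and any of 7 that of A_55_P2002449 (-0.70 to -0.53). The call of the chr17 probe at 0.98 (0.83 to 1.09) and that of the chr4 probe (-0.64 to -0.56) were each lost without any of 6 mice. The chr19 probe at -0.61 lost its call without vehicle mouse 4 or low-dose mouse 10 (-0.67 to -0.53).

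**Figure D3:**
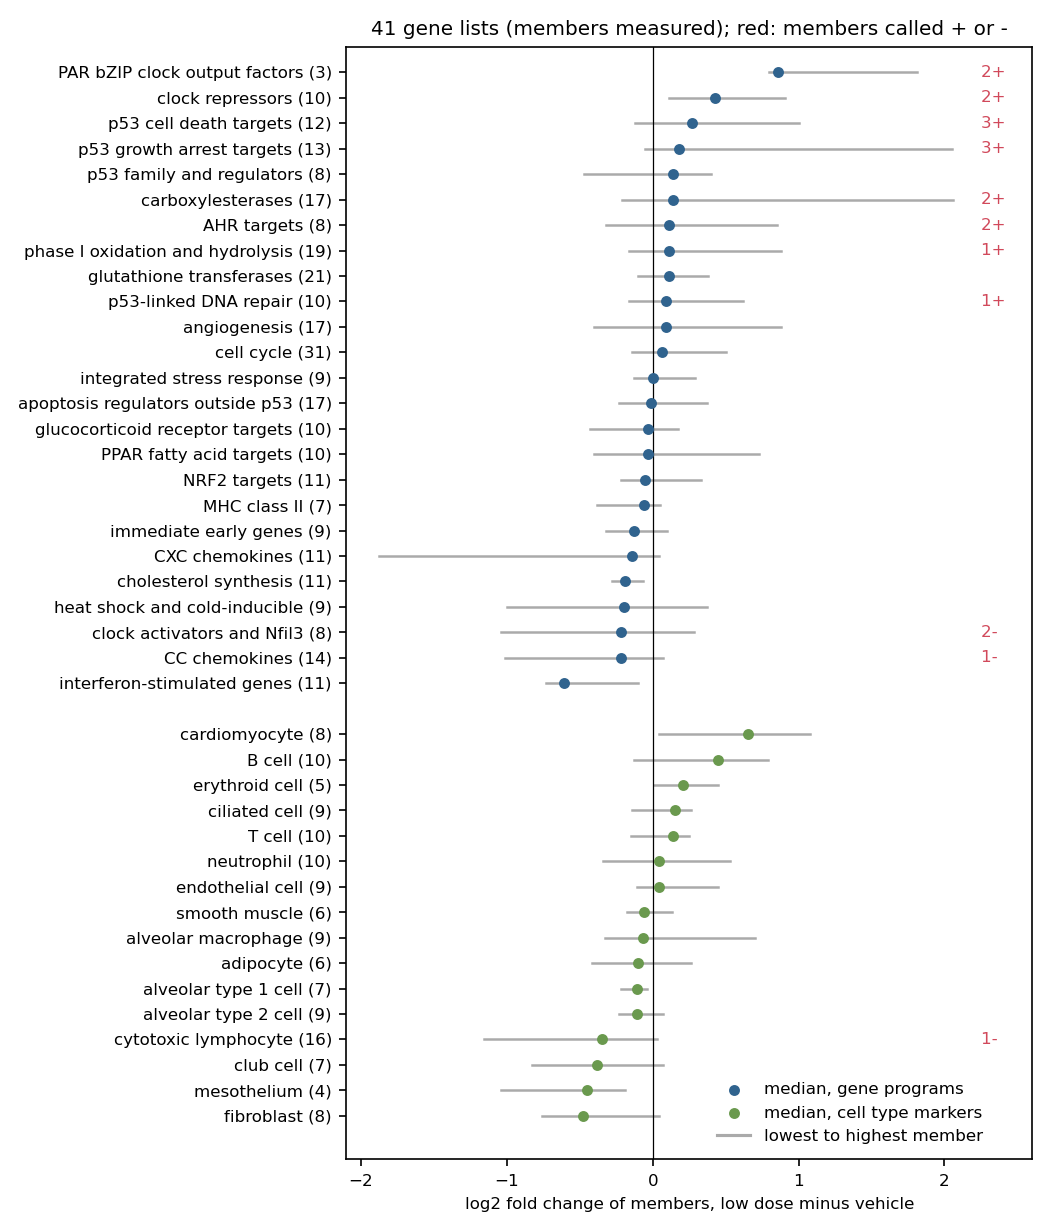
Each row is 1 of 41 gene lists, with the number of measured genes in parentheses; the point is the median log2 fold change at the low dose and the grey line runs from the lowest to the highest member. Red marks count the members called higher (+) or lower (-): 11 of the 41 lists hold a call, and the highest medians are those of the PAR bZIP factors (0.86) and, without a call, of cardiomyocyte markers (0.65).

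Over the lists of immune genes and cells, Ccl5 was the 1 gene called. Cytotoxic lymphocyte markers had a median of -0.35 over 16 genes, of which Ccl5 was called (beside 0.16% of all genes). Of the 16, 7 had an unadjusted p below 0.05, all lower, beside 9.26% of all genes in either direction. Gzma, a granule protease, stood at 5.46, 4.95, 4.63, 3.75 and 5.07 in vehicle mice and at 2.79, 4.62, 2.90 and 4.14 at the low dose (-1.16, adjusted p = 0.39), so that exposed mice 7 and 10 lay among the vehicle mice. The transcription factors Tbx21 (-0.50) and Eomes (-0.49) and the receptor Klra4 (-0.63) were not called. B cell markers pointed the other way, with a median of 0.45 over 10 genes, 6 of them below an unadjusted p of 0.05 and higher (again beside 9.26% of all genes), and no call. Cr2, the complement receptor of B cells, differed by 0.79 (adjusted p = 0.38), Ms4a1 (CD20) by 0.61 and Cd79b, a subunit of the B cell receptor, by 0.56, and the exposed mice overlapped the vehicle mice in the mean over the list (0.20 to 0.52 against -0.44 to 0.33). T cell markers had a median of 0.14 and no call.

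Chemokines and interferon targets had mostly negative fold changes and a wide spread between mice. Cxcl5, a neutrophil attractant, had log2 ratios of -2.35, -0.39, -0.02, -0.95 and -0.71 in vehicle mice and of -1.79, -3.49, -2.82 and -2.94 at the low dose, and its difference of -1.88 was not called (standard error 0.49, adjusted p = 0.17). The median over 11 CXC chemokines was -0.14, and that over 14 CC chemokines was -0.22 with Ccl5 as the 1 call. Interferon-stimulated genes had a median of -0.61 over 11 genes with no call. This rested on vehicle mouse 3, whose mean over the list was 1.57 above the vehicle average while the other vehicle mice ranged from -0.60 to -0.27 and the exposed mice from -0.55 to -0.38, and without this mouse the median was -0.10.

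Markers of the other cell types of the lung gave no call. The medians were -0.11 for alveolar type 2 and for alveolar type 1 cells, 0.04 for endothelial cells, 0.15 for ciliated cells, -0.07 for alveolar macrophages and 0.04 for neutrophils. The first pair turned to 0.06 and 0.01 when median centring replaced loess. Fibroblast markers had a median of -0.48 over 8 genes, and their mean ranged from -0.50 to -0.13 in exposed mice against -0.12 to 0.20 in vehicle mice. Club cell markers ranged from -1.75 to 1.14 in exposed and from -0.87 to 1.01 in vehicle mice, and cardiomyocyte markers, as of the muscle sleeves of pulmonary veins, from -0.78 to 2.18 and from -1.85 to 1.43. Both spans are wider than those of the p53 and clock lists, and they differ between mice of a group; their part in the called genes was not tested. Cell cycle genes (median 0.06 over 31 genes, with Wee1 at 0.50 and an adjusted p of 0.057), apoptosis regulators outside p53 (-0.01), integrated stress response genes (0.00), heat shock and cold-inducible genes (-0.20), immediate early genes (-0.13), angiogenesis genes (0.09), cholesterol synthesis genes (-0.19) and PPAR targets (-0.03) also had no member called. Within the angiogenesis list Mmrn2, an endothelial matrix protein, had exposed values of 5.83 to 6.17 above vehicle values of 4.91 to 5.36 (0.88, adjusted p = 0.062).

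**Figure D4:**
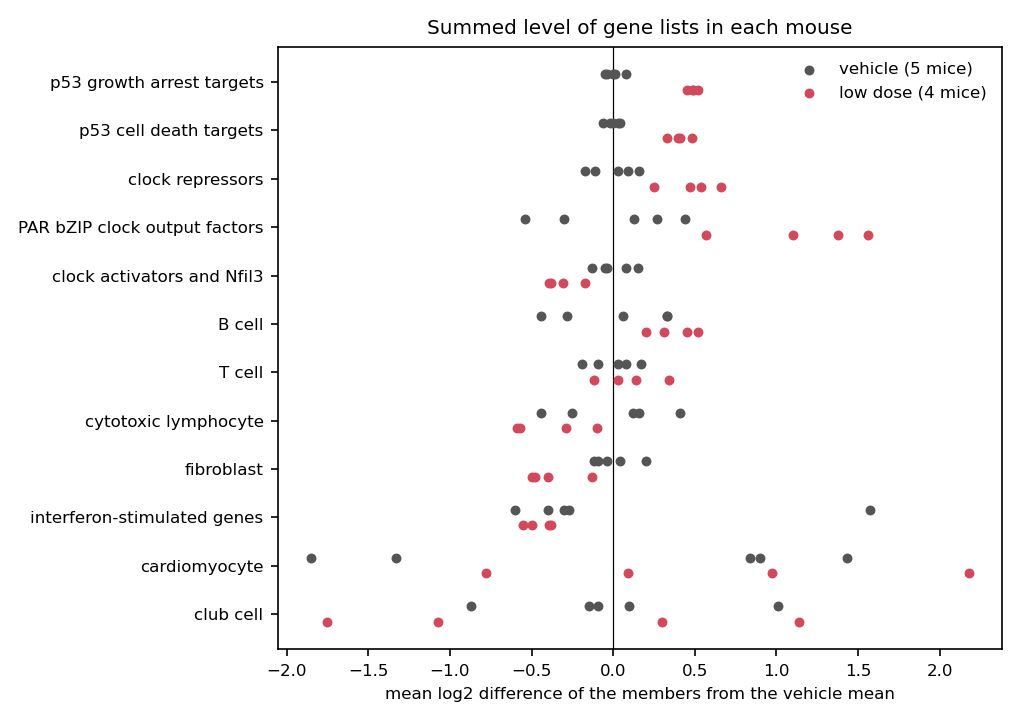
Each point is 1 mouse (grey, vehicle; red, low dose), placed on the x axis by its mean log2 difference from the vehicle average over the members of the list named on the y axis. The p53 growth arrest and cell death lists, the 3 clock lists plotted and, narrowly, the fibroblast list separate the groups. Of the lists not plotted, those of carboxylesterases, p53-linked repair and CXC chemokines do so too. Apart from the fibroblast and CXC lists, these lists hold genes called on the same mice. The interferon list shows vehicle mouse 3 apart at 1.57, and the cardiomyocyte and club cell lists spread over both groups.

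Between the low and the medium dose no probe was called (0% of 55681; limma, with 2764 probes below an unadjusted p of 0.05), and none was called under the alternatives tried for this comparison apart from 1 probe without medium-dose mouse 13. Between the low and the high dose the calls numbered 25 (0.0449%), of which 20 were for a higher and 5 for a lower level at the high dose, and 7 of them were among the 50 called at the low dose. Cdkn1a was higher at the high than at the low dose by 1.08 (standard error 0.13, adjusted p = 0.0016), and by 1.12 on its other probe. Ahrr was higher by 0.76 (adjusted p = 0.00085), Ccng1 by 0.80 (0.024) and Phlda3 by 0.66 (0.020), and Mfap2 was lower still (-0.59, 0.039). Zmat3, which had missed the fold limit at the low dose, was 0.73 higher at the high dose (adjusted p = 0.0092). Ddah1 was called on its brightest probe (0.67, adjusted p = 0.047), which had not been called at the low dose, and not on the other (0.51, 0.33). For 29 of the 35 genes called at the low dose no probe was called between these doses, among them Gdf15 (0.82, adjusted p = 0.16), Ces2e (0.61, 0.49), Dbp (0.41, 0.86), Tef (0.09, 0.97), Nfil3 (-0.10, 0.95) and Arntl (-0.55, 0.53). The low-dose mice enter both comparisons. Without low-dose mouse 7 or high-dose mouse 16, 4 probes were called between these doses, without low-dose mouse 6 there were 7, without low-dose mouse 9 there were 11 and without high-dose mouse 18 there were 14.

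Side by side, and against the same vehicle mice, the log2 fold changes at the low, medium and high dose were 2.05, 2.78 and 2.88 for Gdf15 and 1.39, 2.09 and 2.47 for Cdkn1a. Those of Ces2e were 2.06, 2.30 and 2.67, and those of Dbp 1.81, 2.17 and 2.22. For Nfil3 they were -0.72, -0.81 and -0.82, for Col5a3 -0.84, -0.82 and -0.78, and for Gm6213 -1.30, -0.48 and -0.47. Cyp1a1 stood at -0.32, -0.44 and 1.07.

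**Figure D5:**
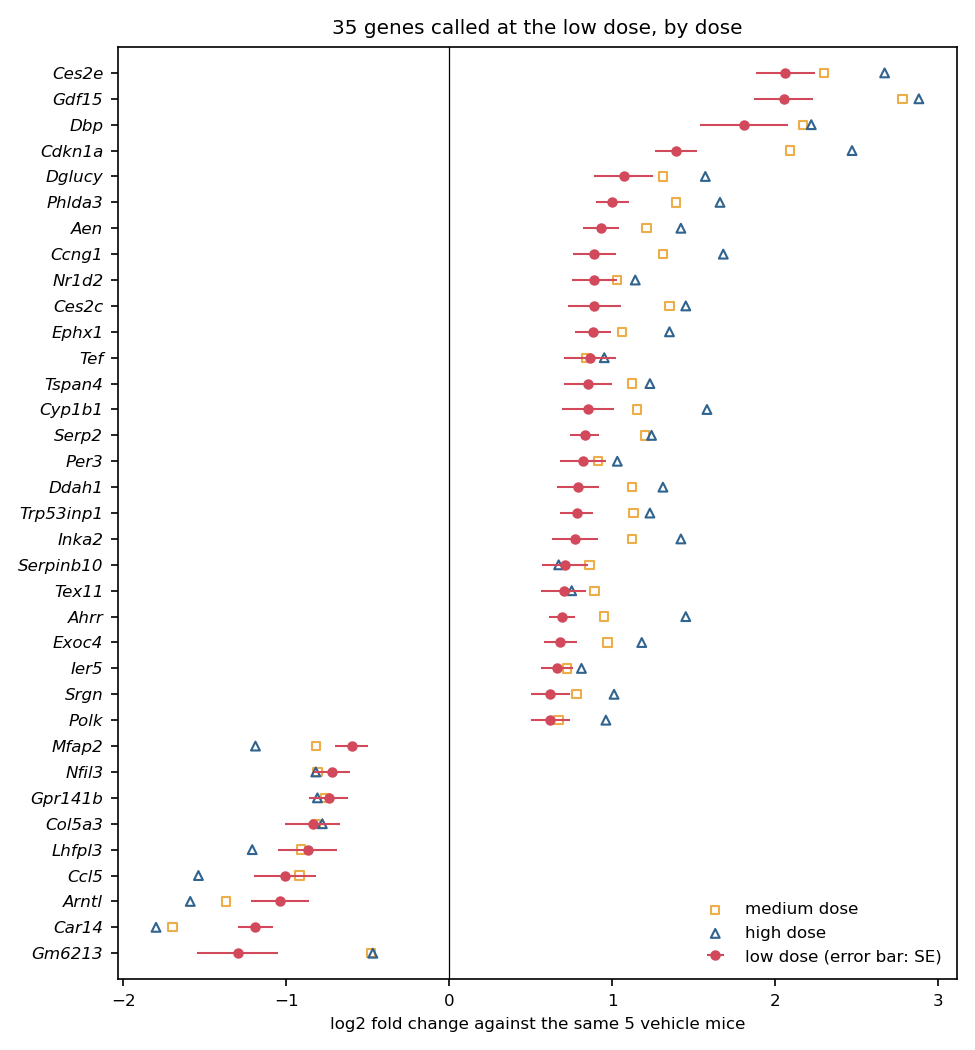
Each row is 1 of the 35 genes called at the low dose, with its log2 fold change against the vehicle on the x axis at the low (red, with standard error), medium (square) and high dose (triangle). All doses share the same 5 vehicle mice; Gdf15 reaches 2.88 at the high dose, while the markers of Tef lie between 0.84 and 0.95.

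Relaxing the fold limit left 93 probes at an adjusted p of 0.05 or less (0.167% of all probes), 53 higher and 40 lower. Two-sided exact permutation tests over all ways to divide the 9 mice into groups of 4 and 5 gave 0.00794, the smallest p they can give, for 38 of the 45 called entries. These entries had been picked for their difference between the same 9 mice, so these p-values are no separate support for the calls.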

How the data were processed

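Lung RNA of each mouse (Cy5) and a reference RNA (Cy3) were hybridised on 1 Agilent array, with no dye swap. Per the file headers, Feature Extraction 11.0.1.1 gave the median spot intensity, without background subtraction, and a log10 ratio that was background-subtracted and dye-normalized. The authors also deposited LOWESS-normalized log2 ratios. Here log2(Cy5/Cy3) was taken from the median intensities and normalized by loess within each array, with control and outlier spots given no weight and outlier spots left out, and spots of a probe were averaged. All 18 arrays in 4 groups were fitted with limma 3.58.1 (R 4.3.3), which stands in for the authors' shuffled MAANOVA F test; all adjusted p-values in the text are limma's. The script was tested on simulated data. Of 55681 probes, 27235 had 1 of 20660 symbols through RefSeq accessions. The brightest probe stands for a gene, or its brightest called probe where it has one. All genes called at the low dose are named, along with listed pathway genes and cell markers. These lists and the comparison itself were chosen with earlier results of these data known. Alternatives changed the background correction, normalization, fold limit, probe filter, test, slide term and mice. The arrays have no read depth, and their number limits precision.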

Additional observations from a re-analysis of the deposited data

Results flagged for a closer look

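Of 174 groups of values examined for 1 mouse far from the rest, 13 had one, and chance gives about 1 in 20. Among the called genes, vehicle mouse 4 was low for Cyp1b1 (-2.25, others -1.65 to -1.45) and for Ccl5 (-1.17, others -0.35 to -0.02), and vehicle mouse 3 was high for Col5a3 (-1.14, others -2.18 to -1.89). At the low dose, mouse 10 was high for Cdkn1a (0.93, others 0.57 to 0.61) and mouse 7 for Polk (0.08, others -0.07 to -0.06).

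Among the means over gene lists, vehicle mouse 3 was high for interferon-stimulated genes (1.57, others -0.60 to -0.27), CC chemokines (0.55, others -0.26 to -0.03) and the cell cycle (0.20, others -0.07 to 0), and low for MHC class II genes (-0.19, others 0.01 to 0.08). Vehicle mouse 4 was low for NRF2 targets (-0.26, others 0.02 to 0.13), vehicle mouse 5 high for immediate early genes (0.38, others -0.18 to -0.04) and vehicle mouse 2 low for PPAR targets (-0.20, others 0.03 to 0.07). Low-dose mouse 10 was high for NRF2 targets (0.17, others -0.10 to -0.06). The source of these values was not tested.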

How the results depend on the processing

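At the low dose the 50 calls became 33 with the scanner software's ratios (29 higher, 4 lower), 3 with median centring, 93 without a fold limit (53 higher, 40 lower) and 23 with only slides 1 and 2, an alternative chosen after seeing the data. They numbered 57 with normexp, 50 in the authors' table, 36 with scaling between arrays (30 higher, 6 lower), 44 from Cy5 alone, 55 with slide as a block, 40 with only the groups compared, 66 among 28566 probes well above background and 37 by residual shuffling. Leaving out 1 mouse gave 34 to 47. Between high and low dose median centring left 0 of limma's 25 calls, with 1105 probes below an unadjusted p of 0.05 against 3738 with loess, and leaving out 1 mouse gave 4 to 23. Between medium and low dose leaving out 1 mouse gave 0 to 1. The alternatives were run on 46 fold changes, those of the 45 called entries and Cyp1a1, and on the medians of the lists, not on other genes named. None of the 46 reversed, 22 of the called ones kept their call without any 1 mouse, and 2, Ces2e and Gdf15, kept it under every alternative with all mice and without slide 3. The scanner software's ratios moved some probes by over 1.5 times, to 2.30 for Ahrr, -3.67 for Gm6213, -1.74 for Gpr141b, -1.35 for Col5a3, -1.38 for Lhfpl3, 1.73 and 1.88 for the chr17 probes and -0.62 for Cyp1a1. Not all of these probes were dim, since those of Col5a3 and Lhfpl3 stood well above background in every vehicle and low-dose mouse. Medians of the glucocorticoid, NRF2, apoptosis, MHC class II, PPAR, alveolar type 1 and 2 and smooth muscle lists changed sign with median centring. Those of the p53, clock, AHR, B cell, fibroblast, cytotoxic and interferon lists kept theirs. Probes near background, with no read depth to judge them by, limit the sizes of the changes given for dim genes. The mouse numbers are not shared between the groups and pair no mice, so slide alone served as a block.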
